A study of Homo sapiens with 2 samples.

Results

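The superoxide dismutases, catalase and the peroxiredoxins are the enzymes that remove superoxide and peroxides from cells, and the 10 human genes SOD1, SOD2, SOD3, CAT and PRDX1 to PRDX6 were followed here, of 57773 rows in the table of all genes. They were found by gene symbol, and each had 1 row. SOD2 was picked because its value was lower after treatment, and the other 9 genes were picked for the same detoxifying role. RNA-seq had been run on MDA-MB-231 cells grown as spheroids; this human breast cancer line is triple-negative, that is, without oestrogen, progesterone and HER2 receptors, and was kept in serum. A spheroid sample was left as Control and another received TGS24, which the labels name by this code alone, and neither its dose nor the time of treatment is given in the sources used here. Each group was 1 library, so nothing below has a replicate check, and every difference is between these libraries and not shown to be one between the conditions.

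Superoxide dismutases turn superoxide into hydrogen peroxide, with SOD1 a copper and zinc enzyme mainly of the cytosol, SOD2 a manganese enzyme of the mitochondrial matrix and SOD3 a secreted enzyme. Catalase breaks hydrogen peroxide down to water and oxygen in peroxisomes. Peroxiredoxins reduce peroxides with a reactive cysteine. The 2-Cys enzymes PRDX1, PRDX2, PRDX3 and PRDX5 are recycled by thioredoxins, and PRDX4 works with protein disulfide isomerases in the endoplasmic reticulum, while PRDX6 has a single such cysteine and takes its electrons from glutathione.

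SOD2 was at least 2-fold lower in TGS24. It was the only one of the 8 tested members past that threshold in either direction with a counting interval that left out 0. Each of the other 7 had a counting interval that held 0 or a ratio under 2-fold. SOD3 and PRDX2 had fewer than 20 reads over both libraries and were not tested. A gene was called when the log2 ratio of TGS24 over Control was at least 1 in size and its 95% counting interval left out 0. Of all 10081 tested genes 6.44% were called lower and 12.7% higher, and nothing is read from the single lower member beside that, since SOD2 was chosen on this contrast. The median log2 ratio was -0.04 over the 8 tested members and -0.004 over all tested genes.

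The library totals were 8570632 reads for Control and 16145121 for TGS24, and RN7SL1, the 7SL RNA, held 41.1% and 31.6% of them. On the scale used here, TGS24 reads were weighted against a library 1.93 times the size of Control. Of the 9 genes listed as markers of MDA-MB-231, VIM and CD44 stood in rows left out as irregular, KRT18 and S100A4 had at most 4 reads in a library, TMSB10, ANXA2, AXL and LGALS1 were lower in TGS24, and CAV1 was not called, at a log2 ratio of -0.29. Centred on the median of all genes in its class of GC content, AXL stood at -0.95 and was no longer called. ESR1, PGR and ERBB2, the receptors that triple-negative cells lack, had together 87 and 128 reads. Fewer cells of a type and less RNA per cell cannot be told apart in such bulk libraries.

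**Figure D1:**
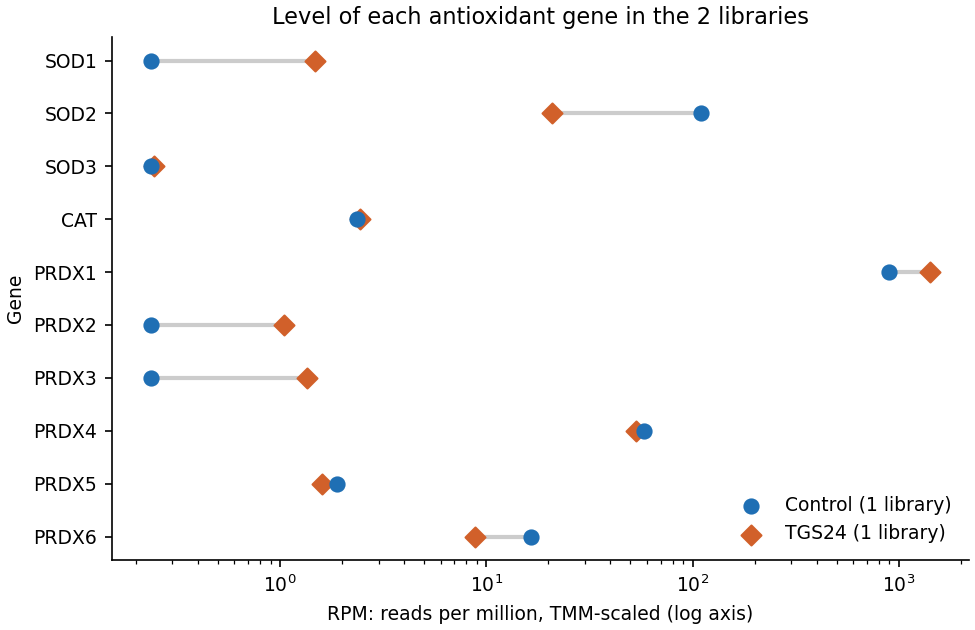
The level of each of the 10 genes in RPM, reads per 1000000 after TMM scaling of the libraries (log axis), with circles for the Control library and diamonds for the TGS24 library. PRDX1 is far to the right of the others in both libraries, SOD2 has the widest gap with Control higher (110 against 20.9), and SOD1, PRDX2, PRDX3 and SOD3 rest on 2 Control reads each.

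SOD2 (ENSG00000112096) had 931 reads in Control and 341 in TGS24, which is 110 and 20.9 RPM. Control thus had more SOD2 reads although its library was the smaller one. The difference was 5.23-fold, a log2 ratio of -2.39 and an interval of -2.65 to -2.14. SOD2 stood at rank 34 from the lowest of the 10081 tested ratios. Of 4378 other genes with at least 200 reads, 2 had a lower ratio. The authors' deposited table of calls lists SOD2 as Down at a log2 value of -2.39. That table calls 3.35% of the 17133 genes in the filtered table Down and 1.9% UP. These shares are over other genes and by another rule than the calls made here, and cannot be set beside them. The authors' value for SOD2 comes from the same 2 libraries and is no separate support.

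SOD2 transcripts are not at either extreme of base composition, with a median GC content of 48.0% against 48.6% for all tested genes. Centred on the median of its GC class, the SOD2 log2 ratio was -2.40. In GENCODE v29 SOD2 exons share 845 bases, 5.12% of the gene's merged exon length, with another protein-coding gene on the same strand. That gene is also named SOD2 (ENSG00000285441). It had no entry among the genes used here, so whether it had reads is not known. SOD2 exons also share 298 bases, 1.81% of their merged length, with WTAP on the opposite strand. WTAP, a subunit of the RNA methylation complex, had 941 and 3795 reads. Strand handling is not given in the sources used here, and reads in the shared bases cannot be assigned to one gene. The processed pseudogene SOD2P1 had 0 reads in both libraries, where a count of 0 allows up to 3 reads.

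The DNA just upstream of SOD2 is shown because SOD2 is the member that carries the difference, with that of PRDX4, whose level was nearly the same in both libraries, beside it. Both are the 250 bases before a transcript start from RefSeq on GRCh38.p14, printed 5′ to 3′ on the gene's strand, with capitals for the GC box GGGCGG, a motif of the factor SP1, on either strand. SOD2 lies on chromosome 6, and its window is chr6:159693242-159693491 on the minus strand. Of the 14 annotated SOD2 transcripts in GENCODE v29, 6 begin within 50 bases of its end. The promoter table holds 4 SOD2 windows, and the one printed has more annotated starts within 50 bases of its end than the other 3. PRDX4 lies on chromosome X, with the window chrX:23667243-23667492 on the plus strand. Of the 10 members 7 had an entry in the promoter table, SOD2, SOD3, CAT and PRDX2 to PRDX5.
SOD2: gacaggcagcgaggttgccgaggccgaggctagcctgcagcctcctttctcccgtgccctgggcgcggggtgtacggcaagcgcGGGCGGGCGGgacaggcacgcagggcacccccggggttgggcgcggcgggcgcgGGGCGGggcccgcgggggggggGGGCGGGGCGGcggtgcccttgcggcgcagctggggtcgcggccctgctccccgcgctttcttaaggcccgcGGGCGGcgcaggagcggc
PRDX4: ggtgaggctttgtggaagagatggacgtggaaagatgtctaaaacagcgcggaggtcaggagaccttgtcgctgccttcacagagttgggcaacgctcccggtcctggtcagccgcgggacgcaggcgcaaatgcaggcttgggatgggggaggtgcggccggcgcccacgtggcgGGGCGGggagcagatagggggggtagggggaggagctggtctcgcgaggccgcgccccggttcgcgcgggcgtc
The printed SOD2 window holds 6 matches, some of which overlap, and has 80.8% GC, where the median of all 35116 promoter windows is 58.0%. The other 3 SOD2 windows hold 4, 1 and 1 matches at 78.4%, 71.2% and 68.0% GC. The PRDX4 window holds 1 match at 68.4% GC. A GC box stands in 42.6% of all windows of this length. The antioxidant response element of NRF2, searched as TGANNNNGC and its reverse complement, had no match in either printed window, and stands in 35.2% of all windows. It had 1 match in another of the SOD2 windows, 1 upstream of CAT, 1 upstream of PRDX3 and 3 upstream of SOD3. These matches describe the letters only, and no binding was measured.

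The cytosolic enzyme gene SOD1 (ENSG00000142168) had 2 reads in Control and 24 in TGS24. Its log2 ratio was 2.04, with an interval of -0.12 to 8.06 that held 0, and at this depth no difference could be detected. Given 2 Control reads, at least 26 TGS24 reads would have been needed for a call, at a ratio of 4.42-fold. The authors' deposited table of calls has SOD1 as UP at a log2 value of 2.65, computed without a pseudocount on 2 reads in Control. When single reads rather than read pairs were taken as the counting unit, the interval ran from 0.63 to 5.77 and SOD1 counted as higher, as did 14.8% of all tested genes. It did so also under median-of-ratios scaling, where the interval began at 0.02 and 15.5% of genes counted as higher. Without the filter on low counts the interval began at 0.04, and 6.82% of genes counted as higher.

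The gene of the secreted enzyme, SOD3 (ENSG00000109610), had 2 and 4 reads, and its interval ran from -4.21 to 5.94. Control and TGS24 cannot be ordered for SOD3 at this depth. The superoxide dismutase reads counted here were thus nearly all from SOD2. SOD2 held 99.6% of them in Control, with a Clopper-Pearson 95% interval from 98.5% to 99.9%, and 92.4% in TGS24, from 87.6% to 95.8%. The 3 genes summed to 935 reads in Control and 369 in TGS24, a log2 ratio of -2.28 and an interval of -2.54 to -2.04, which is set by SOD2. These are shares of counted reads and are not shown to be shares of the RNA in the cells. SOD1 has 3 pseudogenes in the table, all without a read. The treatment of multi-mapping reads is not given in the sources used here, and whether SOD1 reads were lost by it was not tested.

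Catalase (CAT, ENSG00000121691) had 20 reads in Control and 40 in TGS24, or 2.36 and 2.45 RPM. The scaled levels lay next to each other. The log2 ratio was 0.05 with an interval of -1.11 to 1.31, which does not exclude a 2-fold difference in either direction.

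PRDX1 (ENSG00000117450), the abundant cytosolic peroxiredoxin, had 7585 Control and 23106 TGS24 reads. Its level was 895 RPM in Control and 1415 in TGS24. That is 1.58-fold the Control level, with a log2 ratio of 0.66 and an interval from 0.61 to 0.71. The interval left out 0, and the ratio stayed under the 2-fold threshold. With other scalings the ratio moved by more than its counting error, from 0.50 with TMM factors over genes of at least 100 reads to 0.82 without a filter for low counts. PRDX1 exons share 379 bases with MMACHC, a vitamin B12 enzyme on the opposite strand, which had 4 reads in each library.

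PRDX4 (ENSG00000123131), the peroxiredoxin of the endoplasmic reticulum, had 493 and 865 reads, or 58.2 and 53.0 RPM. Its log2 ratio was -0.13 with an interval of -0.36 to 0.10, which leaves out a 2-fold difference in either direction. This is the member whose level was most closely bounded near equality. PRDX4P1, its pseudogene, had 0 reads in both libraries.

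PRDX6 (ENSG00000117592), the enzyme with a single reactive cysteine and a phospholipase activity, had 140 reads in Control and 144 in TGS24. This was 16.5 and 8.82 RPM. The log2 ratio was -0.89, with an interval of -1.40 to -0.41 that left out 0, short of the 2-fold threshold by little. PRDX6 passed it under other settings, at -1.05 with TMM factors over genes of at least 100 reads, where 9.25% of all tested genes were called lower, and at -1.03 when ratios were centred within GC classes, where 5.95% of all tested genes were called lower.

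Both peroxiredoxins of mitochondria had few reads. PRDX3 (ENSG00000165672), which is found in the mitochondrial matrix like SOD2, had 2 reads in Control and 22 in TGS24. Its log2 ratio was 1.93 with an interval of -0.27 to 7.94, and it was 1.15 when centred within GC classes. PRDX5 (ENSG00000126432), found in mitochondria, peroxisomes and the cytosol, had 16 and 26 reads, with a log2 ratio of -0.22 and an interval from -1.63 to 1.23. PRDX3 is UP in the authors' deposited table of calls, with a log2 value of 2.52, which does not list PRDX5. With single reads as the counting unit PRDX3 counted as higher, with an interval from 0.49 to 5.65.

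PRDX2 (ENSG00000167815), a cytosolic peroxiredoxin that is plentiful in red blood cells, had 2 Control and 17 TGS24 reads. The interval of its log2 ratio ran from -0.63 to 7.68. It is UP in the authors' deposited table of calls, with a log2 value of 2.15. Its pseudogene PRDX2P1 had 16 reads in Control and 14 in TGS24, so that in Control more reads were assigned to the pseudogene than to PRDX2 itself. The PRDX2P1 log2 ratio was -1.01, opposite in sign to that of PRDX2, with an interval from -2.83 to 0.52. How multi-mapping reads were treated is not given in the sources used here, and reads of PRDX2 and PRDX2P1 may have been split between them. Of 13 pseudogenes of the members in the table, PRDX2P1 was the only one with a read.

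Haemoglobin genes had reads in both libraries, 4860 and 10453 for HBB, and the 11 red cell markers together had 700 and 763 RPM. Of 7 tested red cell markers 2 were lower in TGS24, the haem synthesis gene ALAS2 and carbonic anhydrase CA1, and none higher. Over all tested genes 6.44% were called lower and 12.7% higher. Centred within GC classes, ALAS2 stood at -0.91 and was no longer called. None of the 11 was at 0 reads in both libraries. Red blood cells are rich in PRDX2 and catalase protein. The part of blood RNA in the PRDX2 and CAT values was not tested.

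**Figure D2:**
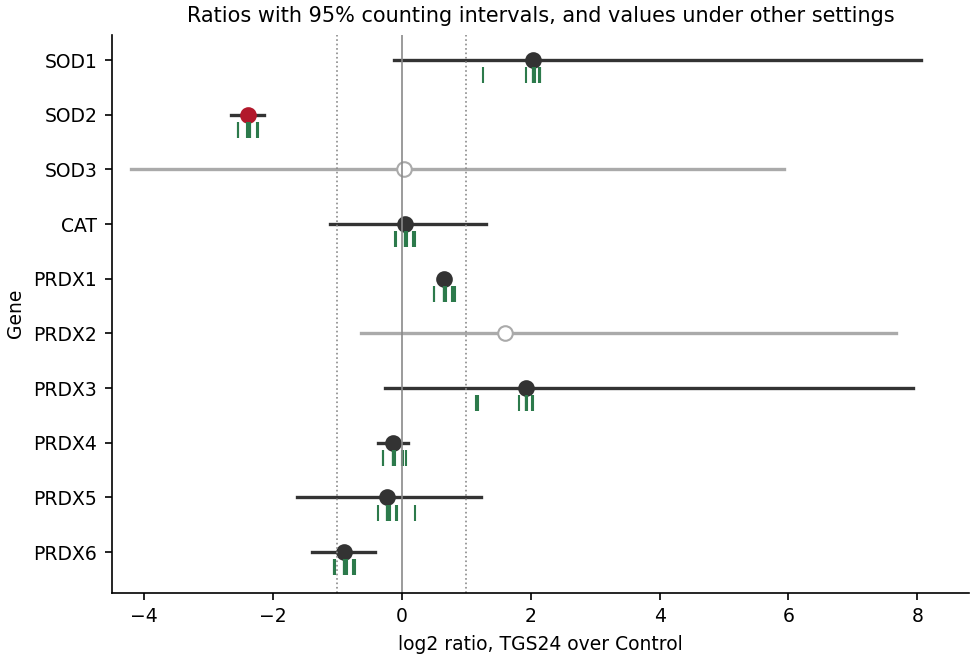
The log2 ratio of TGS24 over Control for each gene, with its 95% counting interval as a line, open grey symbols for the genes that were not tested, dotted lines at 2-fold, and green ticks for the values under the other settings. SOD2, in red, lies below -2 in every setting, while the intervals of SOD1 and PRDX3 run past 7 on the right and hold 0.

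Among the members, levels were compared as scaled reads per kilobase of merged exon, with libraries set to the same size. In Control PRDX1 was at 588, PRDX4 at 30.5, PRDX6 at 6.98, SOD2 at 6.66, PRDX5 at 2.11 and CAT at 0.657 on this scale. PRDX6 and SOD2 were not distinguishable by counting error, with intervals from 5.44 to 8.82 and from 6.08 to 7.30. SOD1, PRDX2, SOD3 and PRDX3, on 2 reads each, lay between 0.0691 and 0.117 with overlapping intervals. The merged exons of SOD2 span 16.5 kilobases, against 0.893 to 3.59 kilobases for the other members, and its level per kilobase depends on how much of that length is in use.

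In TGS24 the order by this per-length level was PRDX1 at 930, PRDX4 at 27.8, PRDX6 at 3.73, PRDX5 at 1.78 and SOD2 at 1.27. SOD2 moved from the fourth place to the fifth, and its interval, from 1.09 to 1.48, lay below that of PRDX6 but inside that of PRDX5, which reached 3.05. SOD1 at 0.728 and CAT at 0.683 had overlapping intervals, as did PRDX2 at 0.498 and PRDX3 at 0.394. SOD3 was last, at 0.115. Among protein-coding genes PRDX1 ranked 20 in Control and 15 in TGS24 by this level.

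PRDX1 held 92.1% of all peroxiredoxin reads in Control and 95.6% in TGS24, with 95% intervals from 91.2% to 92.9% and from 95.2% to 95.9%. PRDX4 held 5.98% and 3.58%, and PRDX6 held 1.70% and 0.596%. The 6 peroxiredoxins together had 8238 and 24180 reads, a log2 ratio of 0.61 that follows PRDX1. Without PRDX1 the other 5 had 653 and 1074 reads and a log2 ratio of -0.23, its interval being -0.43 to -0.03.

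Ratios between members within a library do not depend on how the libraries are scaled. There were 8.15 PRDX1 reads for each SOD2 read in Control and 67.8 in TGS24, a change of 3.05 on the log2 scale with an exact conditional interval from 2.79 to 3.32. The PRDX4 to SOD2 ratio of reads was 0.530 and 2.54, and that of PRDX6 to SOD2 was 0.150 and 0.422. SOD2 was lower in TGS24 against each of the other 7 tested members with an interval that left out 0, which again describes the gene chosen for this. Of the 21 pairs without SOD2, 5 had such an interval, without adjustment for the number of pairs. PRDX6 was lower in TGS24 relative to PRDX1, PRDX3, PRDX4 and SOD1, by 0.77 on the log2 scale against PRDX4 with an interval from 0.22 to 1.32. Its comparisons with PRDX3 and SOD1 rest on 2 Control reads of each partner, with wide intervals of -8.87 to -0.55 and -8.98 to -0.70. PRDX4 was lower relative to PRDX1, by 0.80 with an interval from 0.56 to 1.03.

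**Figure D3:**
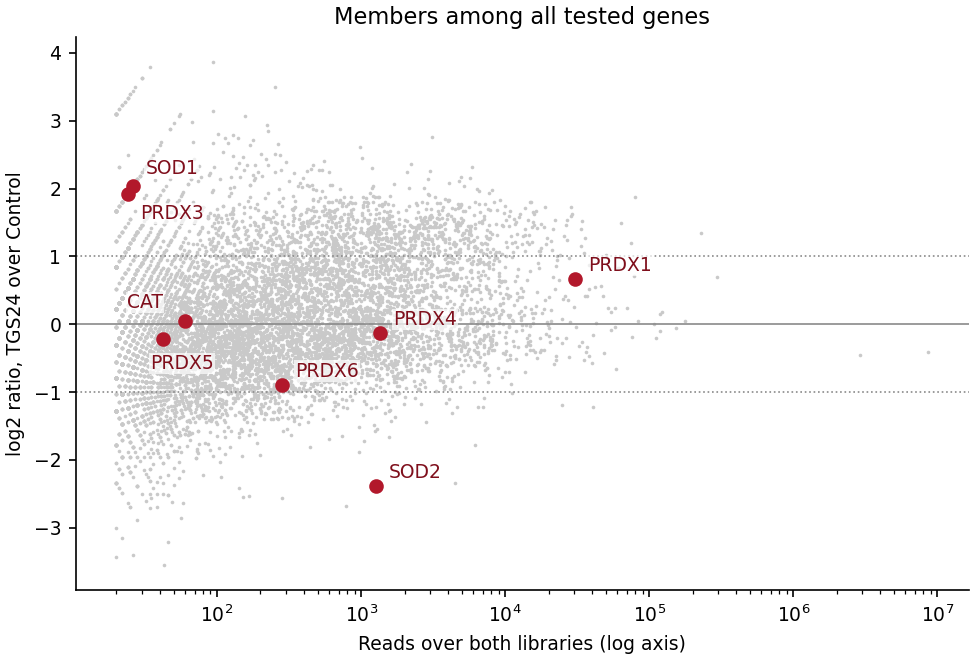
Every tested gene by its reads over both libraries (log axis) and its log2 ratio of TGS24 over Control, in grey, with the 8 tested members in red and dotted lines at 2-fold. SOD2, at -2.39, lies below almost all genes of like depth, while SOD1 and PRDX3 lie at the left among genes with few reads, where ratios spread most.

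The 5 genes with at least 200 reads whose log2 ratios were nearest to that of SOD2 over the 2 libraries were SPARC, KIAA1199, CTD-2328D6.1, OLFML3 and ANXA2P2. SPARC, a secreted matrix glycoprotein, stood at -2.34 on 3272 and 1239 reads, 0.04 from SOD2. KIAA1199, a hyaluronan-binding protein, was at -2.56. Centred within GC classes, SPARC stood at -1.96 and KIAA1199 at -2.26, against -2.40 for SOD2. The pseudogene CTD-2328D6.1 was at -2.67, OLFML3, a secreted olfactomedin-like protein, at -1.93 and ANXA2P2, a pseudogene of annexin A2, at -1.88. With 2 libraries this likeness is no more than a similar ratio.

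Genes that recycle peroxiredoxins or work beside them were mostly not past the threshold. Of 17 in the list 12 were tested, of which 3 were lower and none higher, with a median log2 ratio of -0.11. Over all tested genes 6.44% were called lower and 12.7% higher, and nothing is read from the counts in this list or those after it. Glutathione reductase gene GSR was 2.31-fold lower, on 27 and 21 reads, with an interval from -2.58 to -0.05. TXNIP, which binds and inhibits thioredoxin, was 2.23-fold lower, on 70 and 59 reads. The sestrin gene SESN2 was 3.15-fold lower on 16 and 8 reads, with an interval that ended at -0.05. Centred within GC classes, the intervals of GSR and SESN2 held 0, and TXNIP had no GC value. The genes of this list with most reads, the glutaredoxin genes GLRX5 and GLRX3, had log2 ratios of 0.09 and 0.38. The sestrin gene SESN1 stood at 0.96, just short of the threshold, but at 0.10 when centred within GC classes, with an interval that held 0. NNT, a mitochondrial source of NADPH, stood at -0.80, or -1.45 and called lower when so centred.

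The gene of the cytosolic thioredoxin, TXN, had 22 reads in each library and a log2 ratio of -0.87 and an interval of -2.29 to 0.40. It was called lower, at -1.81, when centred within GC classes. The mitochondrial thioredoxin gene TXN2, whose protein reduces PRDX3, had 10 and 22 reads, and its interval, -1.45 to 2.07 around a log2 ratio of 0.17, held 0. Thioredoxin reductase TXNRD1 had 119 and 270 reads and a log2 ratio of 0.23. SRXN1, the sulfiredoxin that rescues over-oxidised peroxiredoxins, had 2 and 3 reads. Of 8 glutathione peroxidases, which remove the same peroxides with glutathione, GPX4 and GPX8 were tested and neither was called. GPX4, which acts on lipid peroxides in membranes, had 98 and 116 reads and a log2 ratio of -0.69 and an interval of -1.28 to -0.12. Centred within GC classes, GPX4 stood at -0.30, with an interval of -0.88 to 0.27 that held 0. GPX1 had 6 and 10 reads.

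Of 17 enzymes and subunits that produce superoxide or peroxide 9 were tested, and xanthine dehydrogenase gene XDH was the only one called, 2.99-fold lower on 40 and 24 reads. The list median was -0.58. ERO1L, an oxidase of the endoplasmic reticulum and the one with most reads, had 95 and 325 and a log2 ratio of 0.82, or -0.04 when centred within GC classes. The oxidases DUOX1 and NOX4 had log2 ratios of -0.09 and -0.01, or 0.29 and -0.66 when so centred.

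Of 8 genes listed under the loading and modification of superoxide dismutases 5 were tested, with a median of -0.17. SLC31A1, the copper importer CTR1, was 2.24-fold higher, on 81 and 352 reads, with an interval from 0.66 to 1.68. CCS, the chaperone that gives SOD1 its copper, had 163 and 197 reads and a log2 ratio of -0.67, or -0.23 when centred within GC classes, and was not called. MTCH2, a protein of the outer mitochondrial membrane with 2401 and 5188 reads, had a log2 ratio of 0.17. It stood in the list, but nothing here shows a part for it in this loading or modification. SIRT3, the deacetylase that activates SOD2, had 6 and 8 reads and was not tested.

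Of 13 listed factors that act on SOD2 transcription 11 were tested, with a median of -0.30. CEBPD, an acute-phase transcription factor, was 3.42-fold lower, on 3960 and 2225 reads, with an interval from -1.88 to -1.67. The nucleolar protein gene NPM1 was 3.28-fold higher, on 638 and 4034 reads. Centred within GC classes, CEBPD moved from a log2 ratio of -1.78 to -1.36 and NPM1 from 1.71 to 1.06, and both were still called. NFE2L2, which encodes NRF2, was 2.13-fold higher, on 122 and 503 reads, with an interval from 0.69 to 1.53, and stood at 0.68 when centred within GC classes. STAT3 and CEBPB had log2 ratios of -0.30 and -0.68. The NF-kB subunit gene NFKB1 had 50 and 51 reads and a log2 ratio of -0.88, and NFKB2 had -0.57. Centred within GC classes, STAT3, CEBPB, NFKB1 and NFKB2 stood at -0.10, -0.27, -0.77 and -0.17. REL, RELA and SP1 stood in irregular rows and were left out.

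SOD2 is a target of NF-kB, and of 23 other targets 11 were tested, with a median of -0.48. IL1B, an inflammatory cytokine, was 4.32-fold lower on 18 and 6 reads, and BIRC2, an inhibitor of apoptosis, was 2.69-fold higher on 24 and 129 reads, or 0.94 on the log2 scale when centred within GC classes. NFKBIA, the inhibitor of NF-kB and the target with most reads, had 779 and 995 and a log2 ratio of -0.59 and an interval of -0.79 to -0.40. SQSTM1, an autophagy receptor, stood at -0.93 on 164 reads in each library. Centred within GC classes, NFKBIA stood at -0.28 and SQSTM1 at -0.54. The other 7 tested targets were not called, although BIRC3 and PTGS2, each at -1.79, were called lower when centred within GC classes, and 12 had under 20 reads. SOD2, with 931 Control reads, was deeper than any of these targets in Control.

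**Figure D4:**
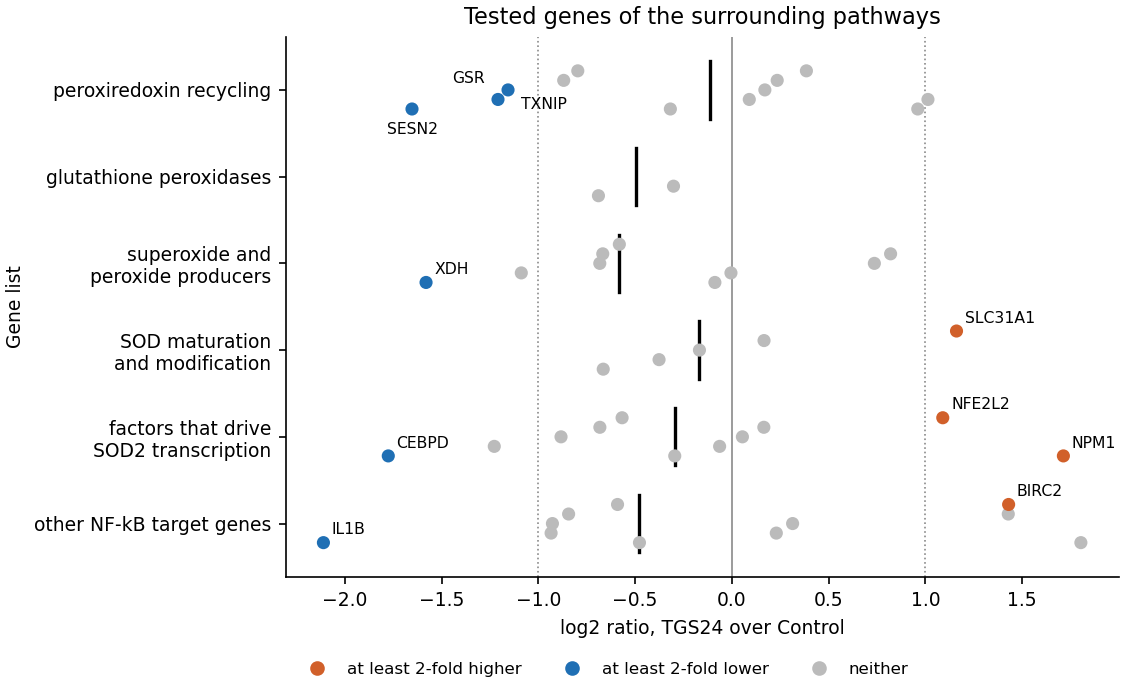
The log2 ratio of TGS24 over Control for each tested gene of the 6 surrounding lists, coloured by call, with a black bar at each list's median and dotted lines at 2-fold. Called genes are named, 4 higher and 6 lower, and no list median lies outside the range from -0.58 to -0.11. Over all tested genes 12.7% were called higher and 6.44% lower.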

How the data were processed

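Gene expression was measured by RNA-seq in 1 Control and 1 TGS24 library, grouped by sample title. Per the submitters' processing notes, DESeq2, featureCounts 1.5.2, STAR, Bowtie2 2.2.4, Trimmomatic and the build hg19 were used, without stated roles. No annotation release is named there. The authors deposited a normalized signal per gene and library, whose steps show that each library's gene counts had been divided by a size factor of 1.03 (Control) or 1.98 (TGS24). Whole reads, within a relative tolerance of 1e-06, came out for 99.9% of values above 0 in each library. The authors deposited a fold change, the ratio of the TGS24 to the Control value with no pseudocount, and its log2 value. Other lines at the end of the filtered table hold the authors' mean and SD of that column. Rows that repeated an identifier, stood out of order, were not whole reads or differed between tables (48, no member among them) were left out.

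TMM factors (edgeR 4.0.16, R 4.3.3) scaled the reads. Log2 ratios used a prior count of 2, among genes with at least 20 reads over both libraries. Clopper-Pearson 95% intervals were computed on read pairs, because 75.3% of Control and 73.5% of TGS24 counts were even. Intervals and floors cover counting error only. No test or p-value was possible with 1 library per group; count models were not run. Gene lengths, GC content and overlaps came from GENCODE v29 on GRCh38 by Ensembl identifier, and promoter sequences from RefSeq. Calls were tested on simulated data with known folds. The design assumed that whole reads could be recovered, as they were. The members, the lists and the naming rule were chosen with earlier results of these data known. That rule took all members, every called gene of 6 pathway lists, up to 3 genes of each list with most reads, pseudogenes of members, and the 5 ratios nearest to SOD2; TXN, TXN2, BIRC3, PTGS2, TXNRD1, SRXN1, GPX1, SIRT3, NFKB1, NFKB2, NOX4, MMACHC and WTAP were named after their values were seen. Scaling, filters, prior count, GC centring and counting unit were varied. Calculations used Python 3.11.15 with numpy 2.4.6, scipy 1.17.1, pandas 2.3.3 and matplotlib 3.10.9.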

Additional observations from a re-analysis of the deposited data

How the results depend on the processing

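SOD2 was called lower under all 11 alternatives, with a log2 ratio from -2.55 to -2.23, and its distance to the median of the other tested members ran from -2.61 to -2.25. All alternatives reuse the same reads of a gene picked for its lower value. They show how far the processing moves the ratio and are no separate support for it. The number of members called lower was 1 of 8 in the main setting, and PRDX6 was added under some alternatives. TMM factors over genes with at least 100 reads gave 2 of 8, where 9.25% of all tested genes were called lower. Ratios centred within GC classes also gave 2 of 8, where that share was 5.95%. A filter of at least 100 reads gave 2 of 4, where 410 of 5533 genes were called lower. The number called higher rose from 0 to 1, by SOD1, with median-of-ratios scaling and with no filter on low counts, and to 2, by SOD1 and PRDX3, with single reads in place of read pairs. In that order, 15.5%, 6.82% and 14.8% of all tested genes were called higher. Without the filter all 10 members were tested. Over all tested genes, centring within GC classes gave 546 higher in place of 1277, and the filter of at least 100 reads gave 410 lower in place of 649, among 5533 genes. CAT ran from -0.10 to 0.20, PRDX4 from -0.30 to 0.06 and PRDX5 from -0.37 to 0.21, none of them called under any alternative. The values of the filtered table equalled those of the table of all genes for the members. No paired analysis was possible because each group holds 1 library. With 2 Control reads for SOD1, SOD3, PRDX2 and PRDX3, depth limits these genes.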
